A study of Homo sapiens with 2 samples.

Results

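The regions described here are the anchor pairs of chromosome 17 in a list of TCF3::HLF-bound chromatin interactions, taken separately on either side of HLF, the gene that is broken by t(17;19). Members were the listed interactions of chromosome 17 whose second bin ended before HLF (HLF-proximal side, from the end of the short arm to HLF) or whose first bin started after it (HLF-distal side, from HLF to the end of the long arm). Of the 49245 interactions in the list, 1897 lay on chromosome 17, with 1015 on the HLF-proximal and 882 on the HLF-distal side. No interaction of chromosome 17 (0 of 1897) fell on neither side, which means that none touched or crossed HLF. HLF lies at chr17:55264960-55325187 (hg38, GENCODE release 44) on the plus strand.

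HiChIP, which joins chromatin immunoprecipitation to chromosome conformation capture, was carried out with an anti-TCF3 (E2A) antibody in HAL-01, a leukemia cell line with t(17;19). The cells expressed Cas9GFP and carried a knockout of wild-type TCF3, so that the antibody pulled down the fusion protein, and were expanded after dilution into single wells. The design held 1 group with 2 replicates and no control group. The authors merged the replicates before calling, so none of the values below has a replicate error and no comparison was tested. Each interaction is a pair of 5-kb bins, called anchor bins here, between 50 kb and 3 Mb apart. Its contact count is the number of read pairs that join both bins, and its q-value comes from the FitHiChIP model of distance and coverage. The contact counts added up to 26946 on the HLF-proximal and 23983 on the HLF-distal side, out of 1268490 in the list. Intervals are 95% intervals and cover counting error only, and they are a lower limit because copies of read pairs were not removed. Those of shares, medians and density ratios also treat the listed interactions or bins as independent. Many interactions share an anchor bin, so these intervals may be too narrow. The normal chromosome 17 and the derivative chromosomes cannot be told apart in the list, and only pairs of bins within 1 reference chromosome were analysed.

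TCF3 (E2A) is an E protein of early B-cell development, and HLF is a PAR bZIP factor of hematopoietic stem cells. The fusion joins the activation domains of TCF3 to the bZIP DNA-binding domain of HLF, and it is encoded on the derivative chromosome 19, which carries the part of chromosome 17 beyond the break. HLF binds palindrome-like sites of the form TTACGTAA or TTATGTAA, which are called HLF motifs below and were searched as exact letters on both strands. Of the 5 anchor bins with the most interactions on each side, 3 on the HLF-proximal and 3 on the HLF-distal side held at least 1 HLF motif. Their sites are shown first, since these bins took part in the most interactions of their side, with ties ordered by position. Each stretch of 30 bases is read from hg38 in the direction of the motif, which stands in capitals.
LINC02093 bin, chr17:13306821-13306850, minus strand, 38 interactions: tgggccggaagTTATGTAAcccatgtggtg
GAS7 intron, chr17:10107236-10107265, minus strand, 20 interactions: accttgtagtgTTATGTAAgaggaagtgtg
ASGR1 bin, chr17:7171470-7171499, plus strand, 14 interactions: atcaggaagtgTTATGTAAttatatcccct
ASGR1 bin, chr17:7171499-7171528, plus strand, same bin: tatgtctctacTTACGTAAtctttctcctt
SEC14L1 intron, chr17:77099121-77099150, plus strand, 39 interactions: gctgtggagggTTATGTAAcagtggttatg
MRPS23 start site bin, chr17:57851499-57851528, minus strand, 31 interactions: tatcagacaagTTATGTAActtcctgaggc
MRPS23 start site bin, chr17:57852623-57852652, plus strand, same bin: ctctgagcaagTTATGTAActtttcgagcc
Bin near CHCT1, chr17:60439703-60439732, plus strand, 17 interactions: ataatcagtcaTTACGTAAcaggaaagaaa
The other 4 of these 10 bins, at the start sites of ATP6V0A1 and NLRP1, near TMEM100 and in LINC00511, held 0 HLF motifs.

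As a whole, the HLF-distal side was the denser of the sides. It carried 31.6 interactions per Mb over 27.9 Mb, compared with 18.4 per Mb over the 55.3 Mb of the HLF-proximal side, a ratio of 1.72 (1.57 to 1.88). The other chromosomes together had 16.1 per Mb, and the highest value of a whole chromosome was 24.0 per Mb, on chromosome 20. Thus, the HLF-proximal side lay within the range of whole chromosomes and the HLF-distal side above it. Such a density was not limited to chromosome 17. Of 2346 stretches of 27.9 Mb on the other chromosomes, taken in steps of 1 Mb, 18 held at least 882 interactions, on chromosomes 2, 5, 6 and 10. The median stretch held 426 and the highest, on chromosome 2, 941.

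Genes were sparser on the HLF-distal side and HLF motifs about as frequent. It had 12.2 protein-coding genes per Mb and the HLF-proximal side 15.3, which gave 2.59 and 1.20 interactions per gene. The sides had 49.7 and 48.0 HLF motifs per Mb, or 63.6 and 38.2 interactions per 100 motifs. The difference held when the HLF-proximal side was divided at the centromere. The short arm had 19.4 interactions per Mb and the long arm up to HLF 20.3, and the HLF-distal side exceeded them by ratios of 1.62 (1.45 to 1.83) and 1.56 (1.40 to 1.73). The difference varied along the chromosome. By the bin nearer to HLF, the first 10 Mb had 42.9 interactions per Mb on the HLF-distal and 12.9 on the HLF-proximal side. At 10 to 20 Mb from HLF the HLF-distal side was not denser, with 24.1 against 27.3 per Mb. The ratio there was 0.883, with an interval that includes 1 (0.739 to 1.05). Beyond 10 Mb as a whole the values were 25.3 and 19.6 per Mb, a ratio of 1.29 (1.15 to 1.45). The number of copies of each side in HAL-01 is not given by the list, and its part in these densities was not tested.

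In windows of 1 Mb, the median was 16 interactions on the HLF-proximal and 24.5 on the HLF-distal side. Windows with at least 30 interactions made up 11 of 56 (19.6%) and 10 of 28 (35.7%). No window of the HLF-distal side lacked the midpoint of an interaction, against 5 windows of the HLF-proximal side. Of these, 3 lay in the anchor-free stretch of 4280 kb around the centromere. Another 1 was the shorter window at the end of the short arm, with 264960 bases. The remaining 1, from 2 to 3 Mb before HLF, held 2 anchor bins, whose interactions had their midpoints elsewhere.

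The contrast was steepest beside HLF itself. Within 3 Mb of HLF, 5 interactions had both bins on the HLF-proximal side and 139 on the HLF-distal side. Among 2567 stretches of 3 Mb without reference gaps over all chromosomes, 270 (10.5%) held 5 interactions or fewer and 45 (1.75%) held 139 or more. The median such stretch held 38 interactions, and 58 on chromosome 17. On chromosome 17 itself, 2 of 71 stretches held 5 or fewer and 3 held 139 or more. HLF motifs followed the opposite order, with 309 in the 3 Mb before HLF and 182 in the 3 Mb after it. Protein-coding genes followed that of the interactions, with 4 before and 27 after HLF.

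The interactions of the HLF-proximal side that came within 3 Mb of HLF numbered 6, and all can be named. The nearest joined chr17:54925001-54930000, in an intron of TOM1L1 and 335 kb before HLF, to chr17:54440001-54445000, with a contact count of 23 (14.6 to 34.5). TOM1L1 encodes an adaptor protein of endosomal sorting. The same far bin also contacted chr17:54580001-54585000, with a count of 20 (12.2 to 30.9). In 3 more, the nearest protein-coding start site of both bins was that of KIF2B, a kinesin gene, 142 to 673 kb away. Their contact counts were 21 (13 to 32.1), 31 (21.1 to 44) and 40 (28.6 to 54.5), at distances of 205, 720 and 820 kb between the bins. The sixth reached from chr17:50930001-50935000 near SPAG9 to chr17:52810001-52815000 over 1880 kb, with a count of 33 (22.7 to 46.3). These pairs had a median contact count of 27. For the 162 interactions that came within 3 Mb on the HLF-distal side it was 26 (range, 13 to 141). Only pairs that passed the q-value limit of the caller are listed, so whether fainter contacts were present on either side was not tested.

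On the HLF-distal side, 30 interactions came within 1 Mb of HLF. The nearest anchor bin, chr17:55530001-55535000, lay 205 kb beyond HLF and joined chr17:55690001-55695000 with a contact count of 36 (25.2 to 49.8). This latter bin, in intergenic sequence 26.8 kb from TMEM100, had 16 interactions and lay closest to HLF of the 5 bins with the most interactions. Of its 16 interactions, 13 pointed away from HLF and 3 toward it. Its strongest partners were bins in TRIM25, which encodes a ubiquitin ligase, with a contact count of 44 (32 to 59.1) over 1190 kb, and next to C17orf67, with 39 (27.7 to 53.3) over 1095 kb. A bin in PCTP, a phosphatidylcholine transfer protein, also reached 39, over 70 kb. A start site of ANKFN1 was contacted with a count of 28 (18.6 to 40.5) over 480 kb. No interaction of this bin reached back past HLF, although the caller would have allowed 3 Mb.

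Between the last anchor bin before HLF and the first one after it lay 600 kb without an anchor bin. The gap overlapped 6 protein-coding genes, TOM1L1, COX11, STXBP4, HLF, MMD and SMIM36. It was not short of HLF motifs, with 57, or 95 per Mb. Of these, 3 had the form TTACGTAA and stood in introns of TOM1L1 and SMIM36. They are printed, with the motif in capitals, because these palindromic sites stood where no anchor bin was listed.
TOM1L1 intron, chr17:54940815-54940844, plus strand: tgaaagagtggTTACGTAAgttccagaaga
SMIM36 intron, chr17:55460539-55460568, plus strand: taaaataccatTTACGTAAatttaaaacat
SMIM36 intron, chr17:55463577-55463606, plus strand: tgtaatgaaagTTACGTAAatgtggtctct
At this distance interactions were called elsewhere on the chromosome. At 600 to 700 kb, chromosome 17 had 64 interactions, with a median contact count of 22.5 and a smallest one of 13. Positions with no spanning interaction were nevertheless found elsewhere too. Of 4162 positions every 20 kb along chromosome 17, reference gaps included, 346 (8.31%) were spanned by 0 interactions. Most of these lay around the centromere, with 214 in that run and 30 in the run that holds HLF. Over all chromosomes, with reference gaps left out, 12.1% of 145560 positions were spanned by 0. Anchor-free stretches of at least 600 kb without reference gaps numbered 352 on 23 chromosomes, and 99 of them were crossed by 0 interactions. Many of these were longer than the gap at HLF, and those above 3 Mb could not be crossed by any listed interaction. On chromosome 17, a stretch of 635 kb from chr17:18650001 was also crossed by 0. Stretches of 650 and 800 kb were crossed by 4 and 2. An anchor-free stretch without a crossing was thus not limited to HLF, but the lengths compared were unlike.

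Although the sides differed in the number of interactions, those that were listed had similar contact counts and q-values. Pairs that did not pass the q-value limit of the caller are not in the list, so the strength of all contacts was not compared. The median contact count was 24 (23 to 25) on the HLF-proximal and 25 (24 to 26) on the HLF-distal side, next to 24 on the other chromosomes. Relative to the median of all listed interactions at the same distance, in classes of 50 kb, the medians were 1.00 (0.96 to 1.04) and 1.04 (1.00 to 1.08). A q-value under 1e-05 was reached by 690 of 1015 (68.0%, Wilson interval 65.0 to 70.8) and 607 of 882 interactions (68.8%, 65.7 to 71.8), next to 66.5% in the list as a whole. Single bin pairs, to which no neighboring pair was merged, made up 91.7% (89.9 to 93.3) and 90.2% (88.1 to 92.0). Contact counts of at least 100 were found in 6 interactions of the HLF-proximal and 8 of the HLF-distal side.

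The distances between the bins had a somewhat longer median on the HLF-distal side. It was 215 kb (200 to 235) on the HLF-proximal and 245 kb (220 to 275) on the HLF-distal side, with overlapping intervals. For interactions within 10 Mb of HLF, the medians were 168 kb (145 to 220) and 235 kb (210 to 265). Interactions over more than 1 Mb accounted for 11.5% (9.71 to 13.6) and 10.8% (8.89 to 13.0), next to 13.8% (13.5 to 14.1) on the other chromosomes. Pairs of 50 to 100 kb accounted for 24.0% (21.5 to 26.8) on the HLF-proximal side, where the other chromosomes had 19.7% (19.4 to 20.1). On the HLF-distal side they were 176 of 882, with an interval of 17.4% to 22.7%.

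The higher density came with more anchor bins rather than with more interactions for each of them. The HLF-distal side had 33.5 anchor bins per Mb and the HLF-proximal side 20.9, with 0.943 and 0.878 interactions for each bin. Bins with a single interaction made up 77.5% and 76.4%. At least 10 interactions were found in 19 of 935 bins (2.03%) and 14 of 1156 bins (1.21%), next to 2.12% on the other chromosomes. Bins that were linked by interactions formed 76 networks on the HLF-distal and 150 on the HLF-proximal side, or 2.72 and 2.71 per Mb, with a mean of 11.6 and 6.77 interactions for each. The HLF-distal network with the most interactions began at the first anchor bin after HLF. It ran for 8.20 Mb, chr17:55530001-63725000, and its 249 interactions were 28.2% of the side. That of the HLF-proximal side, chr17:28525001-37145000, ran for 8.62 Mb with 113 interactions (11.1%).

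The strongest contacts of the HLF-distal side started from SEC14L1, which encodes a lipid-binding protein of the SEC14 family. The bin chr17:77095001-77100000, in an intron of SEC14L1 and over the noncoding gene SNHG20, had 39 interactions, the most of any bin on chromosome 17. Its contact count with intergenic sequence 30.6 kb from a start site of SEPTIN9, a cytoskeletal GTPase, was 215 (187 to 246) over 150 kb, the largest of the chromosome and at rank 8 in the list. With a bin inside SEC14L1 80 kb away it was 165 (141 to 192). The contact counts of the bin added up to 1924, and 26 of its interactions pointed toward the end of the long arm. Partner bins held start sites of 7 protein-coding genes, among them JMJD6, RHBDF2 and CYGB.

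MRPS23 followed, a gene of the mitochondrial ribosome 2.51 Mb beyond HLF. The bin at its start site, chr17:57850001-57855000, had 31 interactions and held 2 HLF motifs. It joined the bin next to the start site of SRSF1, a splicing factor, with a contact count of 141 (119 to 166) and the start site of VEZF1, a zinc finger factor of blood vessel development, with 77 (60.8 to 96.2). It was also contacted from ANKFN1, 800 kb beyond HLF, with a count of 32 (21.9 to 45.2) over 1725 kb. All of these lay in the densest 1-Mb window of the chromosome, chr17:57325188-58325187, except for the bin in ANKFN1. That window had 109 interactions and 15 protein-coding genes, of which 14 had at least 1 interaction within 10 kb of a start site. The exception was MPO, the neutrophil peroxidase. MSI2, which encodes an RNA-binding protein of stem cells, had 23 interactions, CUEDC1 23 and DYNLL2, a dynein light chain, 21.

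Further along the HLF-distal side, strong contacts joined bins outside protein-coding genes. The bin chr17:60435001-60440000, over a gene that is not protein-coding and 12.5 kb from CHCT1, had 17 interactions and joined chr17:60140001-60145000 near CA4, a carbonic anhydrase gene, with a count of 135 (113 to 160) over 295 kb. Its partners included the start sites of RPS6KB1, the S6 kinase, USP32 and TUBD1. The intergenic bin chr17:59325001-59330000, 1.66 kb from YPEL2, joined a bin in LINC01476 with a count of 117 (96.8 to 140).

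On the HLF-proximal side, the largest contact count, 156 (132 to 182), joined chr17:36080001-36085000 near CCL3 to chr17:36190001-36195000 at CCL3L3, both genes of chemokines. These bins shared 619 sequences of 31 bases, so reads of one copy may have been placed at the other, and this contact and the 34 interactions of CCL3L3 are uncertain. It was the only 1 of the 1897 pairs of bins that shared at least 500. A count of 116 (95.9 to 139) joined the start site of TOB1, an antiproliferative factor, to a bin 30.5 kb from SPAG9. A count of 112 (92.2 to 135) joined a bin beside SLC16A11 to ASGR1, the asialoglycoprotein receptor gene, whose bin held both forms of the HLF motif. Within ATP6V0A1, a subunit of the proton pump of lysosomes, bins at start sites were joined with a count of 104 (85.0 to 126). A count of 103 (84.1 to 125) linked bins near CCL8 and CCL1.

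The bin with the most interactions on the HLF-proximal side, chr17:13305001-13310000, had 38 and lay over the noncoding gene LINC02093, 246 kb from the nearest protein-coding start site, that of HS3ST3A1, a heparan sulfate sulfotransferase gene. Its contact counts ran from 16 to 97, and its partners reached from 55 to 2865 kb away. The bin in GAS7 had 20 interactions with counts from 14 to 72. The start site bin of ATP6V0A1 had 16, and its partner bins held the start sites of STAT3 and STAT5A, which encode transcription factors of cytokine signaling, and of NAGLU and PSMC3IP. The start site bin of NLRP1, an inflammasome sensor, had 13, with counts from 16 to 52.

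The densest 1-Mb window of the HLF-proximal side, chr17:35264961-36264960, held 58 interactions and 29 protein-coding genes, mainly Schlafen and chemokine genes. It includes CCL3L3, whose 34 interactions are uncertain because of copied sequence. The next densest window of the side held 48, and the rank without the interactions of CCL3L3 was not tested. A count of 100 (81.4 to 122) joined the start site of SLFN13 to SLFN12L. The bins of this pair shared 0 sequences of 31 bases. TBC1D3I, a member of a copied family in this window, was the gene with 0 interactions.

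The share of anchor bins with an HLF motif was nearly the same on both sides and lower than elsewhere. It was 24.9% (22.5 to 27.5) of 1156 bins on the HLF-proximal, 23.5% (20.9 to 26.4) of 935 on the HLF-distal side and 31.8% (31.4 to 32.2) on the other chromosomes. Bins 25 kb away that were no anchors had 21.0% (19.2 to 22.9), 20.7% (18.6 to 23) and 28.6% (28.2 to 28.9). The lower level of chromosome 17 was therefore also found in bins without interactions, along with a higher GC content, at means of 45.4% and 45.3% in the anchor bins against 41.9% on the other chromosomes.

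The share was higher in bins with more interactions. Among bins with 1 interaction it was 20.6% (18.1 to 23.4) and 20.4% (17.6 to 23.5), no higher than in the bins 25 kb away from them. Among bins with 5 or more it was 51.7% (41.4 to 61.9) of 87 and 47.0% (36.6 to 57.6) of 83, whereas the bins 25 kb away from these had 23% (16.9 to 30.4) and 21.1% (14.9 to 29.0). The other chromosomes showed the same order, with 28.8% and 54.0%. The form TTACGTAA alone was found in 1.99% and 2.67% of all anchor bins, and in 8.05% and 9.64% of those with 5 or more interactions.

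Most interactions did not join motif to motif. Both bins held an HLF motif in 10.9% (9.16 to 13.0) of the interactions of the HLF-proximal and 9.98% (8.17 to 12.1) of the HLF-distal side, compared with 16.4% on the other chromosomes. Neither bin did in 39.8% (36.8 to 42.8) and 40.9% (37.7 to 44.2). The median contact count was 25 and 27 with the motif in both bins and 23 on each side with it in neither. In promoters of 300 bases around the start sites given by RefSeq, an exact HLF motif was found in 11 of 1116 on the HLF-proximal and 7 of 521 on the HLF-distal side (0.986% and 1.34%), next to 1.01% elsewhere.

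Fewer interactions of the HLF-distal side involved a gene start. On the HLF-proximal side, the start site of a protein-coding gene stood in 1 of the bins in 34.4% (31.5 to 37.4) of the interactions and in both in 6.31% (4.97 to 7.97). On the HLF-distal side these shares were 26.6% (23.8 to 29.7) and 4.88% (3.64 to 6.50), and 68.5% (65.3 to 71.5) of its interactions had a start site in neither bin. Introns held 29.1% (26.3 to 32.1) of its anchor bins, against 24.7% (22.3 to 27.2) on the HLF-proximal side. Seen from the genes, however, more of the HLF-distal side was reached. An anchor bin within 10 kb of a start site was found for 241 of 340 protein-coding genes (70.9%, 65.8 to 75.5) and on the HLF-proximal side for 494 of 845 (58.5%, 55.1 to 61.7), next to 55.1% of all 19970 protein-coding genes. With the start site itself in the anchor bin, the shares were 36.2% and 26.7%. The median number of interactions of a gene that had any was 2 on both sides.

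Lists of genes with a shared function were counted next, each beside the shares of all genes of its side. In a list of B-cell and lymphoid factors, 9 of 10 genes of the HLF-proximal and 8 of 9 of the HLF-distal side had an interaction. STAT3 had 18, the strongest with a contact count of 49 (36.3 to 64.8) over 85 kb. STAT5A had 4 and STAT5B 1, at a count of 29 (19.4 to 41.6). IKZF3, which encodes the lymphoid factor Aiolos, had 5, with a strongest count of 40 (28.6 to 54.5). MAP3K14, the kinase of noncanonical NF-κB signaling, had 6 and TNFRSF13B, the receptor TACI, 3. On the HLF-distal side GRB2, an adaptor of receptor signaling, had 3, with a strongest count of 57 (43.2 to 73.9). CD79B, which encodes a signaling chain of the B-cell receptor, and TBX21, the T-cell factor T-bet, had 0. With the start site itself in the bin, 8 of 10 and 3 of 9 had an interaction, beside 26.7% and 36.2% of all genes of these sides.

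Of 17 genes for chemokines and their receptors, all on the HLF-proximal side, 16 had an interaction, but 7 with the start site itself in the bin. The start site bin of CCL8 took part in 13, and CCL8 had 24 interactions in all within 10 kb of its start. CCL2 and CCL7 shared a contact of 85 (67.9 to 105) with that bin. CCR7, the receptor that guides lymphocytes to lymph nodes, had 6, with a strongest count of 45 (32.8 to 60.2). These genes stand close together, so several of them count the same interactions.

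Leukocyte surface molecules were reached less evenly, with 2 of 7 genes on the HLF-proximal and 7 of 11 on the HLF-distal side. PECAM1, the adhesion molecule CD31, had 12 interactions with a strongest count of 72 (56.3 to 90.7) over 90 kb, and its neighbor ICAM2 had 8. ITGB3, an integrin of platelets, had 8. CD68, ITGA2B, ITGAE and CD300A were among those with 0. In the HOXB cluster, which patterns the body axis and is active in stem cells, 2 of 10 genes had an interaction, and it was the same one for HOXB2 and HOXB3, with a count of 19 (11.4 to 29.7) and a q-value above 1e-05. Of 26 type I keratin genes of epithelia, 9 had an interaction, with at most 2 for a gene.

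Genes of tumor suppressors and DNA repair had an interaction in 8 of 9 cases on the HLF-proximal and 5 of 5 on the HLF-distal side, and in 4 and 2 with the start site itself in the bin. NF1, which restrains RAS, had 17, the strongest with a count of 45 (32.8 to 60.2). BRCA1, a gene of DNA break repair, had 3. PPM1D, a phosphatase gene of the DNA damage response, had 3 with a strongest count of 57 (43.2 to 73.9). Among genes of cell division, 5 of 6 and 2 of 4 had an interaction. TOP2A, a topoisomerase, had 12 with a strongest count of 76 (59.9 to 95.1), whereas AURKB, a mitotic kinase, had 0. The list of RNA binding and splicing had 4 of 4 and 6 of 7. SMG6, a nuclease of nonsense-mediated decay, had 23 interactions on the HLF-proximal side and SRSF1 15 on the HLF-distal side. All 9 genes listed around SOX9 had an interaction, but the list does not hold every gene there. SLC39A11 and SSTR2, beyond SOX9, were not in it. KCNJ2, a potassium channel gene, had 16, with a strongest count of 76 (59.9 to 95.1) over 610 kb, and SOX9 itself had 1, with a count of 13 (6.92 to 22.2).

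For the neighbors of HLF within 3 Mb, the same interactions were counted by gene, so these counts are not separate support for the contrast. Over all genes, 58.5% of the HLF-proximal and 70.9% of the HLF-distal side had an interaction. On the HLF-proximal side 1 of 4 genes had an interaction, TOM1L1, while COX11, STXBP4 and KIF2B had 0. Of these, COX11 and STXBP4 lie in the gap without anchors, so this side offered few genes for the comparison. On the HLF-distal side 23 of 27 did, and the exceptions were MMD, SMIM36, TMEM100 and MPO, of which MMD and SMIM36 lie in the gap without anchors. NOG, which encodes an antagonist of bone morphogenetic proteins, had 1 interaction, over 1290 kb, with a count of 39 (27.7 to 53.3). SCPEP1, a carboxypeptidase gene, had 12, and ANKFN1 had 7. With the stricter rule that the start site itself lie in the anchor bin, 13 of the 31 neighbors had an interaction. All of them were among the 27 on the HLF-distal side, where 36.2% of all genes had one by this rule.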

How the data were processed

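TCF3::HLF-HiChIP was measured in TCF3-KO HAL-01 cells (1 group, 2 replicates). The authors trimmed reads with Trim Galore 0.6.6, merged the replicates, aligned to hg38 with BWA-MEM, parsed pairs without removing duplicates, and ran FitHiChIP on MACS2 peaks with 5-kb bins, for distances of 50 kb to 3 Mb and a q-value under 0.01. Its version is not given in the sources used here. The deposited contact counts and their sums over merged groups are raw counts of read pairs. The p-value and q-value were deposited by the authors, as was the fraction of significant pairs in a merged group. With merged replicates, 1 list and no control, no test was made.

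Genes came from GENCODE release 44 on hg38, promoters from RefSeq. A gene had an interaction where an anchor bin lay within 10 kb of a start site. Shares have Wilson, contact counts exact Poisson, medians order-statistic and density ratios exact binomial 95% intervals. Copied sequence was scored by shared 31-mers (500 or more). Named genes were those at the 5 strongest interactions and the 5 bins with the most interactions of each side, the neighbors of HLF, the list members and the genes of the densest window. Some list members are not reported here by name. Members and lists were chosen with earlier results of these data known. The functions were tested on simulated data. Software was Python 3.11.15 with pandas 2.3.3, numpy 2.4.6, networkx 3.6.1, scipy 1.17.1 and matplotlib 3.10.9.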

Additional observations from a re-analysis of the deposited data

How the results depend on the processing

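No paired analysis was possible because the replicates were merged before deposit, and for the same reason neither replicate could be left out. The ratio of interactions per Mb, 1.72 for the HLF-distal over the HLF-proximal side, ran from 1.60 to 1.76 with stricter q-values, distances up to 1 Mb, a contact count of at least 20, single bin pairs, summed contact counts, without copied bins or with gaps left out of the length. Within 10 Mb of HLF it was 3.25, from 397 and 122 interactions. Of alternatives chosen after seeing the data, it was 1.29 beyond 10 Mb of HLF, 1.56 on the long arm alone, 2.16 per protein-coding gene, 1.63 without the densest 1 Mb of each side and 1.71 with 1 interaction per merged group. No interaction crossed HLF at its start, middle or end. With a contact count of at least 20, the median distance was 185 kb (HLF-proximal) and 215 kb (HLF-distal). Within 10 Mb of HLF this distance was 168 kb and 235 kb, in the same order. The median contact count was 26 and 27 at a q-value under 0.001 and 29 on both sides under 1e-05. Anchor bins held TTACGTAA in 1.99% and 2.67%, and either motif in 20.6% and 20.4% with 1 interaction and in 51.7% and 47.0% with 5 or more. Genes with an interaction made up 26.7% and 36.2% with the start site in the bin and 50.3% and 58.2% under 1e-05, and with lncRNA genes 53.2% on the HLF-proximal side. With the start site in the bin, genes with an interaction went from 17 to 11 of the lymphoid factors, 16 to 7 of the chemokines, 9 to 5 of the surface molecules, 2 to 1 of the HOXB cluster, 13 to 6 of the tumor suppressors, 9 to 5 around SOX9, 9 to 4 of the keratins and 24 to 13 of the neighbors. Under 1e-05, the HOXB cluster had 0. The cause of these moves was not tested. The depth limits single pairs: a contact count of 13 has an interval from 6.92 to 22.2.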
